A study of Saccharomyces cerevisiae with 12 samples.

Results

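Transcripts of 6 regulators of ribosomal protein genes were followed in budding yeast (Saccharomyces cerevisiae): RAP1, FHL1, IFH1, CRF1, SFP1 and HMO1. These are 6 of the 7126 features in the deposited RNA sequencing table, taken by their systematic names and read in all 12 samples, 3 in each of 4 groups. IFH1 gave the set its name because of its rise in these same samples. For that reason the IFH1 values are given as a description with no test in any comparison, and the tests below concern the other 5 genes, which were chosen by their known role with earlier results known. All 6 passed the filter on low values, a mean of at least 1 RPKM (read density corrected for exon length and for library size, with library sizes as the authors scaled them).

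All 12 samples came from untreated, growing cells in SDC-Leu, a medium without leucine that selects for the LEU2 plasmid pRS315. Wild type here means sac3∆ cells rescued by pRS315 13MYC-SAC3, whose SAC3 is tagged and plasmid-borne. The same deletion with pRS315 vector alone is called sac3∆, and with pRS315 Sac3 R288D, a single amino acid substitution, it is called R288D. The R288D labels name no tag, so whether R288D and wild type also differ in the 13MYC tag cannot be told from them. The fourth group, cdk8∆ with pRS315 vector, has the deletion of CDK8 and no deletion of SAC3 in its label, so in its comparison with wild type the loss of CDK8 and the source of SAC3 cannot be told apart. No label names the strain background or says how many transformants were used, or that replicates were separate cultures, so p-values measure only the spread between these samples. Sac3 is the scaffold of TREX-2, a complex at the nuclear pore that joins transcription to mRNA export, and Cdk8 (gene SSN3) is the kinase of Mediator.

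Ribosomal protein genes are among the most heavily transcribed genes of growing yeast, and their promoters are switched together by nutrient signals. Rap1 binds these promoters directly, and Fhl1 with the high mobility group protein Hmo1 sits beside it. Fhl1 is the platform for the coactivator Ifh1, which leaves when the TORC1 kinase is inhibited, and the Ifh1 paralog Crf1 can take its place as a corepressor in some strain backgrounds. Sfp1 is a zinc finger activator of ribosomal protein and ribosome biogenesis genes that TORC1 and protein kinase A keep in the nucleus.

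The Rap1 motif is the sequence that Rap1 recognises, and binding itself was not measured. The letters ACCCNNACA, searched on both strands within 500 bases before the start codon, occurred in 54 of 138 ribosomal protein genes (39.1%) and in 328 of 6005 protein-coding genes (5.46%). Of the 138, the 3 genes with a match and the lowest sac3∆ differences are shown as examples of such matches. Each stretch has 60 bases, written 5′ to 3′ on the strand of the gene with the match in capitals. The matches lie 301, 236 and 236 bases before the start codons. In RPL9A the match is on the opposite strand, so the capitals are its reverse complement.
RPL9A (R64, chrVII:228606-228665, minus strand): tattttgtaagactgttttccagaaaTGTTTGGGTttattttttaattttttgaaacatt
RPL22B (R64, chrVI:65144-65203, minus strand): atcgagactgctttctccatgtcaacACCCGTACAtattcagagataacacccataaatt
RPS1A (R64, chrXII:1019120-1019179, minus strand): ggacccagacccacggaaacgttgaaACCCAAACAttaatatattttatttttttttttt

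None of the 6 regulator genes had the Rap1 letters in the same 500-base window, which says only that these letters are not there. None had AAAATTTT, the core of the ribosomal RNA processing element, which 12.4% of all windows hold. IFH1 alone had GATGAG, the core of the PAC element found at many ribosome biogenesis genes, 421 bases before its start codon. CRF1 and RAP1 had CCCCT, the core of the stress response element, 439 and 416 bases before theirs. Both sets of letters are common, at 28.2% and 34% of all 6005 windows, and no member had matches of more than 1 of these motifs. The IFH1 and CRF1 stretches are shown because these paralogs went in opposite directions in cdk8∆. Both matches are on the opposite strand, so the capitals are the reverse complement of the letters searched.
IFH1 (R64, chrXII:585885-585944, minus strand): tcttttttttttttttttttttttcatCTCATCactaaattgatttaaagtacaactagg
CRF1 (R64, chrIV:911627-911686, plus strand): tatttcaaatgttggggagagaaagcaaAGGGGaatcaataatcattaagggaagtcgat

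Reads assigned to features came to 16.21 to 22.48 M per library, as recovered from the steps of the values. Features without an annotated exon length were given the smallest length that made whole reads in every sample, where there was any. Without those features the totals were 14.89 to 21 M. The setting without the authors' factors and the read shares of ribosomal protein genes rest on the larger totals. SAC3 lay at 51.3 ± 2.32 RPKM in wild type, 0.0458 ± 0.0416 in sac3∆, 63.7 ± 1.18 in R288D and 33.5 ± 0.348 in cdk8∆ (SD, n = 3). SSN3 lay at 0.205 ± 0.0816 RPKM in cdk8∆ and at 47.8 to 56.9 RPKM on average in the other groups, so all 12 samples carried the levels their labels call for at both deleted genes. The authors' scaling matters for small differences. Without their factors the median difference of all 6124 features tested moved up by 0.15 (log2) in sac3∆, 0.14 in R288D and 0.37 in cdk8∆. Scaled as deposited, those medians were 0.04, 0.02 and 0.01.

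IFH1 (YLR223C, chromosome XII, 582233 to 585490, minus strand, 1 exon, no overlapping annotated gene) encodes the coactivator. In wild type its transcript stood at 27.1, 28.3 and 25.4 RPKM. In sac3∆ it stood at 100.9, 90.3 and 87.1 RPKM, and in R288D at 98.0, 84.3 and 88.6 RPKM. In cdk8∆ it stood at 18.79, 18.41 and 18.04 RPKM. The sac3∆ and R288D samples lay far above every other sample and overlapped each other, while all cdk8∆ samples lay below all wild type samples. Each of these values rests on 1267 to 5663 reads.

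The mean IFH1 level in sac3∆ was 3.45 times that of wild type, a log2 difference of RPKM plus 1 of 1.75 ± 0.07 (limma standard error). R288D gave 3.35 times and 1.71 ± 0.07, and cdk8∆ gave 0.684 times and -0.52 ± 0.07. These differences ranked 12th and 14th from the top of 6124 features in sac3∆ and R288D, whereas in cdk8∆ 13.2% of features had a lower value. Between mutants, IFH1 in sac3∆ stood at 5.04 times its cdk8∆ level (2.27 ± 0.07) and in R288D at 4.90 times that level (2.23 ± 0.07). The 2 SAC3 mutants differed by 0.04 ± 0.07, less than the spread between their samples. Measured from the median of all features, IFH1 stayed within 1.65 and 1.71 in sac3∆, within 1.62 and 1.69 in R288D and within -0.70 and -0.53 in cdk8∆ under the 4 ways of scaling tried. Without that reference, and without the authors' factors, its cdk8∆ difference was -0.15.

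The genes on either side of IFH1 were read as well, a check added after the values were seen. UTP13, which begins 461 bases beyond the end of IFH1 on the same strand and encodes a ribosome assembly factor, stood at 57.1, 66.7, 72.9 and 37.0 RPKM on average in wild type, sac3∆, R288D and cdk8∆. UCC1, on the opposite strand and 973 bases from the start of IFH1, stood at 78.8, 99.1, 92.9 and 92.1 RPKM. Scaled as deposited, UTP13 was above wild type in the SAC3 mutants and below it in cdk8∆ (log2 differences of 0.22, 0.34 and -0.61, limma adjusted p = 0.0436, 0.00543 and 5.5e-05). UCC1 was above wild type in all 3 mutants (0.32, 0.23 and 0.22, limma adjusted p = 0.00173, 0.0134 and 0.013).

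**Figure D1:**
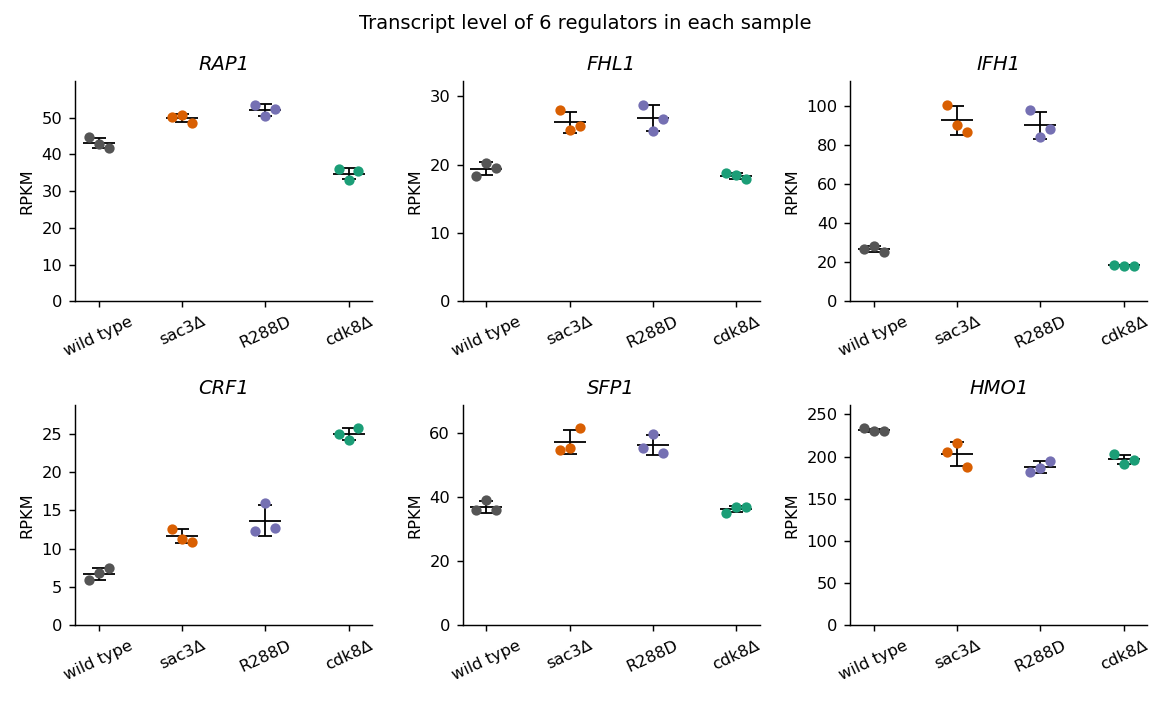
Transcript level (RPKM, linear axes from 0) of each regulator in each of the 12 samples; points are samples, bars the mean and SD of 3. IFH1 lies at 84.3 to 100.9 RPKM in all sac3∆ and R288D samples and at 18.04 to 28.3 RPKM in all others, while CRF1 is highest in cdk8∆ at 24.2 to 25.7 RPKM.

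CRF1 (YDR223W, chromosome IV, 912099 to 913502, plus strand, 1 exon) encodes the paralog of Ifh1 that acts as a corepressor. It stood at 5.85, 6.79 and 7.44 RPKM in wild type, at 12.6, 11.2 and 10.9 in sac3∆, at 12.3, 15.9 and 12.7 in R288D and at 24.99, 24.2 and 25.7 in cdk8∆. Every mutant sample lay above every wild type sample, and every cdk8∆ sample lay above every other sample. It is the scarcest of the 6 in wild type, where each value rests on 138 to 167 reads.

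CRF1 rose in all 3 mutants, by 0.71 ± 0.10 in sac3∆, 0.93 ± 0.10 in R288D and 1.76 ± 0.10 in cdk8∆ (log2, limma adjusted p = 1.47e-04, 2.14e-05 and 5.43e-08). The ratios of mean RPKM were 1.73, 2.04 and 3.73. It was lower in sac3∆ and R288D than in cdk8∆, by log2 differences of -1.05 ± 0.10 and -0.83 ± 0.10 (limma adjusted p = 3.86e-06 and 2.58e-05). The 2 SAC3 mutants stood -0.21 ± 0.10 apart, which did not pass (limma adjusted p = 0.496), and their samples overlapped. The 3 calls against wild type held under every scaling tried. Its neighbours, HTB1 (histone H2B) and the uncharacterised YDR222W, were not higher in any mutant as deposited: their log2 differences from wild type ran from -1.87 to -0.12. The last, HTB1 in sac3∆ (limma adjusted p = 0.084), is smaller in size than the median shift of 0.15 without the authors' factors. The longest run of identical bases between the IFH1 and CRF1 reading frames was 14.

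FHL1 (YPR104C, chromosome XVI, 733623 to 736433, minus strand, 1 exon) encodes the forkhead-associated platform to which Ifh1 and Crf1 bind. It stood at 18.4, 20.3 and 19.6 RPKM in wild type, 28.0, 25.1 and 25.7 in sac3∆, 28.8, 24.97 and 26.8 in R288D and 18.8, 18.5 and 17.9 in cdk8∆. The sac3∆ and R288D samples lay above all others and overlapped each other, and the cdk8∆ and wild type samples overlapped. FHL1 rose by 0.42 ± 0.07 in sac3∆ and 0.45 ± 0.07 in R288D (log2, limma adjusted p = 2.49e-04 and 1.60e-04). Its difference in cdk8∆ was -0.07 ± 0.07 (limma adjusted p = 0.367). That value turned to 0.29 without the authors' factors (adjusted p = 0.00229) and to -0.30 after quantile normalization (adjusted p = 0.00211).

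RAP1 (YNL216W, chromosome XIV, 241689 to 244172, plus strand, 1 exon) encodes the DNA-binding protein of these promoters, which also binds telomeres and silencers. It stood at 44.6, 42.9 and 41.9 RPKM in wild type, 50.3, 50.8 and 48.6 in sac3∆, 53.5, 50.4 and 52.4 in R288D and 35.9, 33.0 and 35.4 in cdk8∆. From high to low the groups were R288D and sac3∆, which overlapped, then wild type, then cdk8∆. RAP1 rose by 0.21 ± 0.05 in sac3∆ and 0.27 ± 0.05 in R288D (log2, limma adjusted p = 0.00358 and 6.87e-04), and fell by 0.30 ± 0.05 in cdk8∆ (limma adjusted p = 1.69e-04). The sac3∆ call ended with medians set equal (0.12, adjusted p = 0.0762) and after quantile normalization (0.12, adjusted p = 0.0714). The cdk8∆ value turned to 0.07 without the authors' factors (adjusted p = 0.144).

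SFP1 (YLR403W, chromosome XII, 925568 to 927619, plus strand, 1 exon) encodes the zinc finger activator. It stood at 35.9, 39.2 and 35.9 RPKM in wild type, 54.8, 55.3 and 61.5 in sac3∆, 55.3, 59.8 and 53.6 in R288D and 35.1, 36.9 and 36.9 in cdk8∆. As for FHL1, the sac3∆ and R288D samples lay above all others, and cdk8∆ overlapped wild type. SFP1 rose by 0.61 ± 0.06 in sac3∆ and 0.59 ± 0.06 in R288D (log2, limma adjusted p = 7.15e-06 and 1.12e-05), calls that every scaling kept. In cdk8∆ its difference was -0.03 ± 0.06 (limma adjusted p = 0.725), and 0.35 without the authors' factors (adjusted p = 6.41e-04).

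HMO1 (YDR174W, chromosome IV, 812110 to 812850, plus strand, 1 exon) encodes the high mobility group protein, which also acts on ribosomal DNA. It stood at 233.5, 230.3 and 230.1 RPKM in wild type, 205.3, 216.4 and 187.8 in sac3∆, 181.3, 186.5 and 195.2 in R288D and 202.8, 191.6 and 195.9 in cdk8∆. All 9 mutant samples lay below all wild type samples, and neighbouring mutant groups overlapped. HMO1 fell by 0.19 ± 0.05 in sac3∆, by 0.30 ± 0.05 in R288D and by 0.23 ± 0.05 in cdk8∆ (log2, limma adjusted p = 0.0103, 5.77e-04 and 0.00229). These falls depended on scaling. After quantile normalization the values were 0.03 in sac3∆ (adjusted p = 0.588), -0.10 in R288D (adjusted p = 0.107) and 0.10 in cdk8∆ (adjusted p = 0.0689). Without the authors' factors they were -0.03 in sac3∆ (adjusted p = 0.652), -0.15 in R288D (adjusted p = 0.0201) and 0.15 in cdk8∆ (adjusted p = 0.0132). With medians set equal all 3 falls were kept, at -0.28 in sac3∆, -0.37 in R288D and -0.29 in cdk8∆ (limma adjusted p at most 0.00137).

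**Figure D2:**
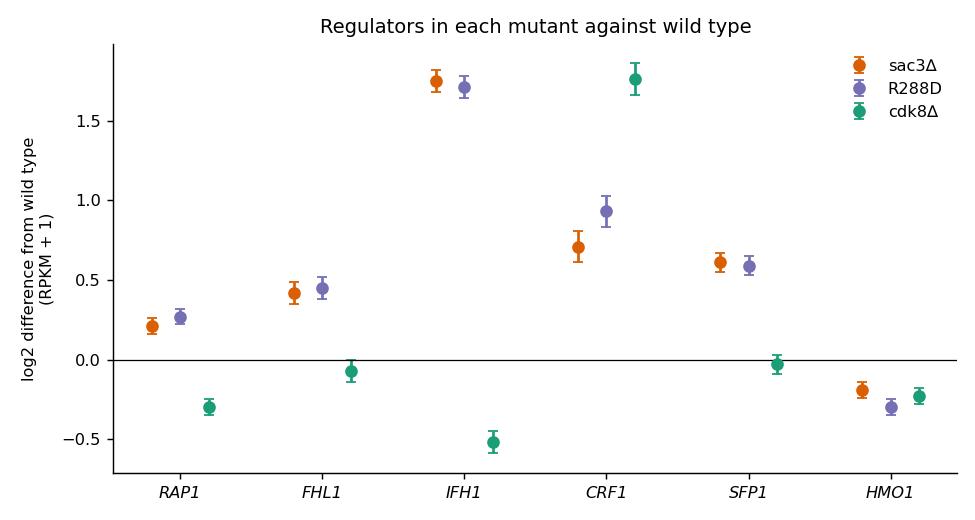
Log2 difference of RPKM plus 1 from wild type for each regulator in sac3∆, R288D and cdk8∆, with the limma standard error. Points of sac3∆ and R288D lie together for each gene, from 1.75 and 1.71 for IFH1 to -0.19 and -0.30 for HMO1, and in cdk8∆ the highest point is CRF1 at 1.76 and the lowest IFH1 at -0.52.

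Of the 5 genes tested, 4 rose and 1 fell in sac3∆, where 27.4% of all 6124 features were called up and 24.1% down (51.5% in all). The count was also 4 and 1 in R288D, against 26.3% up and 24.4% down (50.8% in all). The count of falls became 0 after quantile normalization in both, and without the authors' factors in sac3∆. In cdk8∆ 1 rose and 2 fell, against 31.5% up and 30.6% down (62.1% in all) as deposited. Without the authors' factors the count there was 4 and 0, where 4751 of 6124 features were called and 85.8% of those were up. As deposited, the FHL1 and SFP1 samples of cdk8∆ overlapped wild type. All 5 had groups free of overlap with wild type in sac3∆ and R288D, as did 59.3% and 54.8% of all features, and 3 of the 5 did in cdk8∆, against 72.9%. Between sac3∆ and R288D none of the 5 was called, where 1.37% of features were (0.327% up and 1.05% down). Those 84 features became 17 with only the 2 groups fitted, 53 without sac3∆ replicate 1 and 468 without R288D replicate 2, and still none of the 5 was called. All 5 overlapped there, where 12% of features did not. The smallest adjusted p among them was 0.470, of HMO1, and the differences ran from -0.21 to 0.11. Against cdk8∆, sac3∆ and R288D each had RAP1, FHL1 and SFP1 higher and CRF1 lower, by sizes of 0.49 to 1.05. HMO1 was not called there (0.04 and -0.07, limma adjusted p = 0.489 and 0.276). It was called lower in R288D than in cdk8∆ after quantile normalization (-0.20, adjusted p = 0.00204) and without the authors' factors (-0.30, adjusted p = 1.49e-04), and lower in sac3∆ without those factors (-0.18, adjusted p = 0.00617). In sac3∆ against cdk8∆, 64.1% of features were called (32.9% up and 31.2% down) and 72.4% did not overlap. In R288D against cdk8∆, 63.7% were called (32.3% up and 31.4% down) and 69.2% did not overlap, so calls of this kind were common. The 2 comparisons share the cdk8∆ samples, as those against wild type share the wild type samples.

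By the range of the 4 group means, IFH1 (2.27 on the log2 scale) and CRF1 (1.76) moved more than 98.6% and 96.6% of features. SFP1 (0.64), RAP1 (0.57) and FHL1 (0.52) exceeded 66.5%, 60.2% and 54.8% of features and HMO1 (0.30) 25.7%, the median range being 0.48.

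RPKM is a density per length, so the regulators can be set beside one another within a sample, and 1 factor per library leaves such a ratio unchanged, while quantile normalization does not. In wild type the order of mean RPKM was HMO1, RAP1, SFP1, IFH1, FHL1 and CRF1. In sac3∆ and R288D IFH1 was second, after HMO1. In cdk8∆ it stood below CRF1 and level with FHL1, with means of 18.42 and 18.39 RPKM and IFH1 below FHL1 in 1 of the 3 samples.

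There were 1.39 ± 0.0902 RPKM of IFH1 for each RPKM of FHL1 in wild type, 3.53 ± 0.122 in sac3∆, 3.36 ± 0.0486 in R288D and 1.00 ± 0.00764 in cdk8∆ (SD, n = 3). The single samples gave 1.48, 1.40 and 1.30 in wild type, 3.61, 3.60 and 3.39 in sac3∆, 3.40, 3.38 and 3.31 in R288D and 1.00, 0.994 and 1.01 in cdk8∆. Coactivator transcript was higher relative to platform transcript in every SAC3 mutant sample than in wild type, and the cdk8∆ samples were below all wild type samples.

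The ratio of IFH1 to its paralog CRF1 was 4.63, 4.17 and 3.41 in wild type, 8.00, 8.03 and 8.00 in sac3∆, 7.96, 5.29 and 6.96 in R288D and 0.752, 0.760 and 0.701 in cdk8∆. Thus cdk8∆ was the group in which all samples held more CRF1 than IFH1. CRF1 to FHL1 was 0.345 ± 0.0320 in wild type, 0.441 ± 0.0147 in sac3∆, 0.514 ± 0.111 in R288D and 1.36 ± 0.0700 in cdk8∆ (SD, n = 3). These are ratios of transcripts and say nothing of the proteins, and those with IFH1 carry no test.

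**Figure D3:**
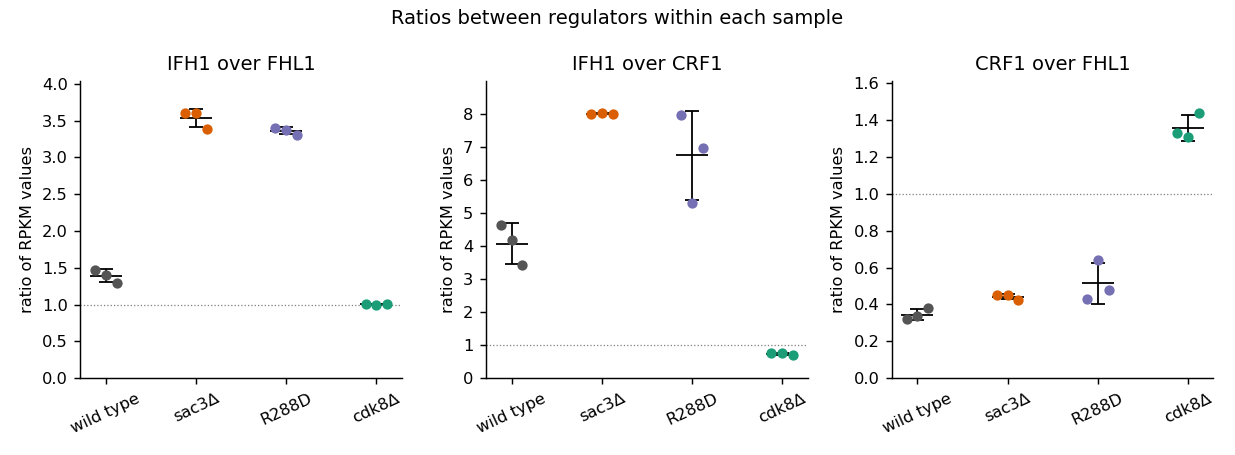
Ratios of RPKM between regulators in each sample, with the mean and SD of 3; the dotted line marks a ratio of 1. IFH1 over FHL1 is 3.31 to 3.61 in sac3∆ and R288D and close to 1 in cdk8∆, where IFH1 over CRF1 is under 1 in all 3 samples.

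The targets were read beside their regulators. Over 138 ribosomal protein genes, the median level per sample lay between 1486 and 1654 RPKM in wild type, between 869 and 982 in sac3∆, between 842 and 1032 in R288D and between 961 and 989 in cdk8∆. Ribosomal protein transcripts were low both where IFH1 was high and where it was low: all 9 mutant samples lay below all wild type samples. Of the 138 genes, 0 rose and 133 fell in sac3∆ (24.1% of all features fell), 0 and 134 in R288D (24.4%) and 0 and 136 in cdk8∆ (30.6%), the last becoming 11 and 16 after quantile normalization. Median log2 differences were -0.73, -0.71 and -0.64, beside 0.04, 0.02 and 0.01 over all features.

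After quantile normalization the cdk8∆ median was 0.02, and those of sac3∆ and R288D were -0.33 and -0.32. Without the authors' factors the 3 medians were -0.57, -0.56 and -0.25. As a share of recovered reads, ribosomal protein genes took between 9.94 and 10.6% in wild type, between 6.73 and 7.16% in sac3∆, between 6.42 and 7.30% in R288D and between 8.68 and 8.89% in cdk8∆. Per unit of ribosomal protein median, IFH1 was at 0.0174 ± 0.00147 in wild type, 0.101 ± 0.0129 in sac3∆, 0.0958 ± 0.00403 in R288D and 0.0189 ± 5.31e-04 in cdk8∆ (SD, n = 3).

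**Figure D4:**
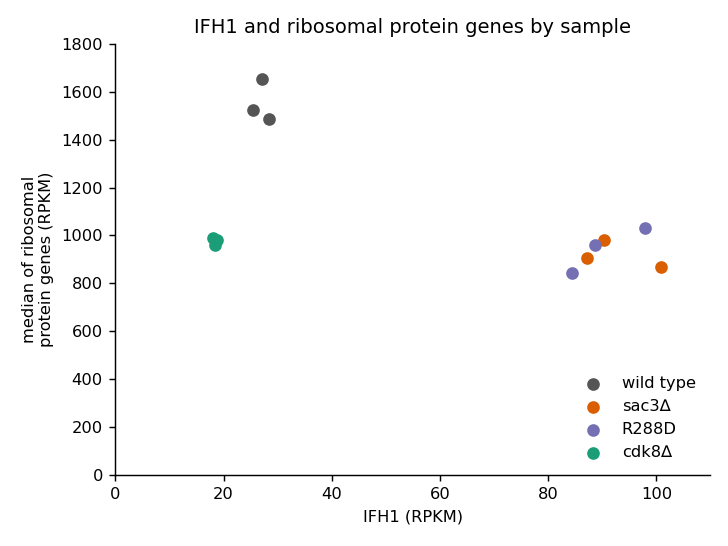
Level of IFH1 (RPKM) against the median level of 138 ribosomal protein genes (RPKM) in each of the 12 samples. The cdk8∆ samples sit at the left and the sac3∆ and R288D samples at the right, all at 842 to 1032 RPKM as deposited, below the wild type samples at 1486 to 1654.

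The lowest ribosomal protein genes in sac3∆ were RPL9A (713 ± 32.2 RPKM against 1604 ± 81.1 in wild type, -1.17 ± 0.06) and RPS25B (-1.05 ± 0.10). In R288D they were RPL9A (-1.11 ± 0.06) and RPS21A (644.7 ± 72.2 RPKM against 1289 ± 98.1). In cdk8∆ they were RPS28B (68.9 ± 9.88 RPKM against 342 ± 55.3, -2.29 ± 0.25) and RPL22B (-1.29 ± 0.15), each 1 copy of a duplicated gene. The limma adjusted p was at most 1.79e-05 for each of these. At the other end, RPS9A (-0.04 in sac3∆, 0.15 in R288D), RPL41B (-0.06 in sac3∆), RPL9B (-0.17 in R288D), RPL1A (-0.25 in cdk8∆) and RPL15B (0.11 in cdk8∆) were not called. Other scalings changed this: RPS9A was called up after quantile normalization in both SAC3 mutants and without the authors' factors in R288D, RPL15B was called up without those factors, and RPL9B and RPL1A were called down with medians set equal. Many of these genes have a near-identical copy among which reads are hard to divide. Genes with the Rap1 letters had medians of -0.76, -0.73 and -0.65 in sac3∆, R288D and cdk8∆ (54 genes), and those without had -0.71, -0.70 and -0.63 (84 genes).

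Genes whose products act on the regulators were counted from lists chosen by known role. Counts under another scaling, here and in the lists below, belong beside the calls of that setting over all 6124 features. Without the authors' factors 3653, 3405 and 4751 features were called in sac3∆, R288D and cdk8∆, 76.9%, 75.8% and 85.8% of them up. With medians set equal 3139, 3117 and 3830 were called, 37.8%, 38.8% and 42.9% of them up. Among 10 partners of Ifh1 and Crf1 and relatives of Fhl1, 4 rose and 3 fell in sac3∆, 5 rose and 3 fell in R288D, and 0 rose and 6 fell in cdk8∆, which became 5 up and 1 down without the authors' factors. The shares called, 70%, 80% and 60%, stood beside 51.5%, 50.8% and 62.1% of all features, and the medians were 0.17, 0.18 and -0.22. YAK1, whose kinase activates Crf1, rose by 0.37 ± 0.06 in sac3∆ (limma adjusted p = 3.70e-04) and 0.26 ± 0.06 in R288D (limma adjusted p = 0.00455) and fell by 0.61 ± 0.06 in cdk8∆ (limma adjusted p = 4.56e-06). CKB1, a subunit of casein kinase 2, which joins Ifh1 in a complex with Utp22 and Rrp7, was lower in all 3 mutants as deposited, at -0.30 ± 0.05 in sac3∆, -0.33 ± 0.05 in R288D and -0.23 ± 0.05 in cdk8∆ (limma adjusted p = 3.99e-04, 1.77e-04 and 0.00174). UTP22 fell by 0.54 ± 0.08 in cdk8∆ (limma adjusted p = 6.87e-05), a call lost without the authors' factors (-0.16, adjusted p = 0.0580). The forkhead genes HCM1 and FKH1 rose in sac3∆ (0.33 and 0.30) and R288D (0.45 and 0.35; limma adjusted p at most 0.00815). The FKH1 call in sac3∆ ended with medians set equal (adjusted p = 0.0517) and after quantile normalization (adjusted p = 0.108). In cdk8∆ FKH1 stood at -0.36 (limma adjusted p = 0.00214), which turned to 0.01 without the authors' factors (adjusted p = 0.912).

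Of 18 genes of TORC1, Sch9 and protein kinase A signalling, 7 rose and 3 fell in sac3∆, 7 rose and 2 fell in R288D, and 0 rose and 4 fell in cdk8∆. With medians set equal the sac3∆ count was 2 up and 6 down and that of R288D 4 and 4, and without the authors' factors that of cdk8∆ was 15 up and 1 down. The shares called, 55.6%, 50% and 22.2%, stood beside 51.5%, 50.8% and 62.1% of all features, and the medians were 0.13, 0.09 and 0.00. SCH9, the kinase through which TORC1 controls ribosome production, rose by 0.31 ± 0.07 in sac3∆ and 0.35 ± 0.07 in R288D (by limma, adjusted p = 0.00193 and 8.63e-04). TPK3, a catalytic subunit of protein kinase A, rose by 0.37 ± 0.08 and 0.47 ± 0.08 (limma adjusted p = 0.00194 and 3.99e-04), the first of which ended after quantile normalization (adjusted p = 0.0572). TCO89, a TORC1 subunit, stood at 0.31 and 0.35 (limma adjusted p = 0.0494 and 0.0309), calls that ended with medians set equal (adjusted p = 0.144 and 0.0720). RAS2 stood at -0.64 ± 0.05 in cdk8∆ and -0.24 ± 0.05 in R288D (limma adjusted p = 5.34e-07 and 0.00187). BCY1 and SIT4 stood at -0.24 and -0.21 in cdk8∆ (limma adjusted p = 0.0177 and 0.0117), values that turned to 0.14 and 0.17 without the authors' factors.

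Of 18 other promoter factors and high mobility group proteins, 10 rose and 2 fell in sac3∆, 11 rose and 2 fell in R288D, and 4 rose and 6 fell in cdk8∆. Without the authors' factors the cdk8∆ count was 13 up and 1 down, where 85.8% of all called features were up. As deposited, the picture was as follows. The shares called were 66.7%, 72.2% and 55.6%, beside 51.5%, 50.8% and 62.1% of all features, with medians of 0.22, 0.23 and 0.01. GCR1, which works with Rap1 at glycolytic genes, stood at 66.0 ± 2.65 RPKM in wild type, 103.5 ± 1.21 in sac3∆, 101.9 ± 3.42 in R288D and 37.8 ± 1.27 in cdk8∆ (SD, n = 3). It rose by 0.64 ± 0.05 and 0.62 ± 0.05 in the SAC3 mutants and fell by 0.79 ± 0.05 in cdk8∆ (limma adjusted p = 6.58e-07, 9.63e-07 and 4.03e-08), high and low in the same groups as IFH1. Its partner gene GCR2 rose by 0.46 ± 0.06 in both SAC3 mutants, and SIR4 by 0.41 ± 0.07 in sac3∆ and 0.47 ± 0.07 in R288D (by limma, adjusted p at most 3.56e-04). EPL1 of the NuA4 acetyltransferase was higher in all 3 mutants as deposited, at 0.50, 0.44 and 0.35 (limma adjusted p at most 1.38e-04). NHP6B, a small high mobility group protein gene, was lower in all 3 as deposited, at -0.29, -0.46 and -0.24 (limma adjusted p = 0.0154, 9.89e-04 and 0.0304). RIF2, whose product binds Rap1 at telomeres, was higher in all 3 as deposited, at 0.38, 0.26 and 0.46 (limma adjusted p = 0.0032, 0.0272 and 7.35e-04), and TRA1 fell by 0.40 ± 0.07 in cdk8∆ (limma adjusted p = 2.53e-04). The cdk8∆ call of RIF2 ended after quantile normalization (adjusted p = 0.183) and that of TRA1 without the authors' factors (adjusted p = 0.811).

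Of 7 repressors of ribosome biogenesis genes, 3 rose in sac3∆, 2 rose in R288D, and 1 rose and 4 fell in cdk8∆, with no falls in the SAC3 mutants as deposited. The cdk8∆ count was 4 up and 1 down without the authors' factors. The shares called, 42.9%, 28.6% and 71.4%, stood beside 51.5%, 50.8% and 62.1% of all features, and the medians were 0.04, 0.08 and -0.13. TOD6, which binds the PAC element, rose by 0.63 ± 0.11 in sac3∆ and 0.61 ± 0.11 in R288D (by limma, adjusted p = 3.92e-04 and 5.47e-04). In cdk8∆ its paralog DOT6 fell by 0.73 ± 0.07 (limma adjusted p = 3.49e-06), and TOD6 stood at -0.58 ± 0.11 (limma adjusted p = 5.24e-04), a call that ended without the authors' factors (adjusted p = 0.0732). UME1 and UME6 stood at 0.25 and 0.23 in sac3∆ and SIN3 at 0.10 in R288D, calls that ended with medians set equal. UME6 stood at -0.29 in cdk8∆ (limma adjusted p = 0.00215) and at 0.08 there without the authors' factors.

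**Figure D5:**
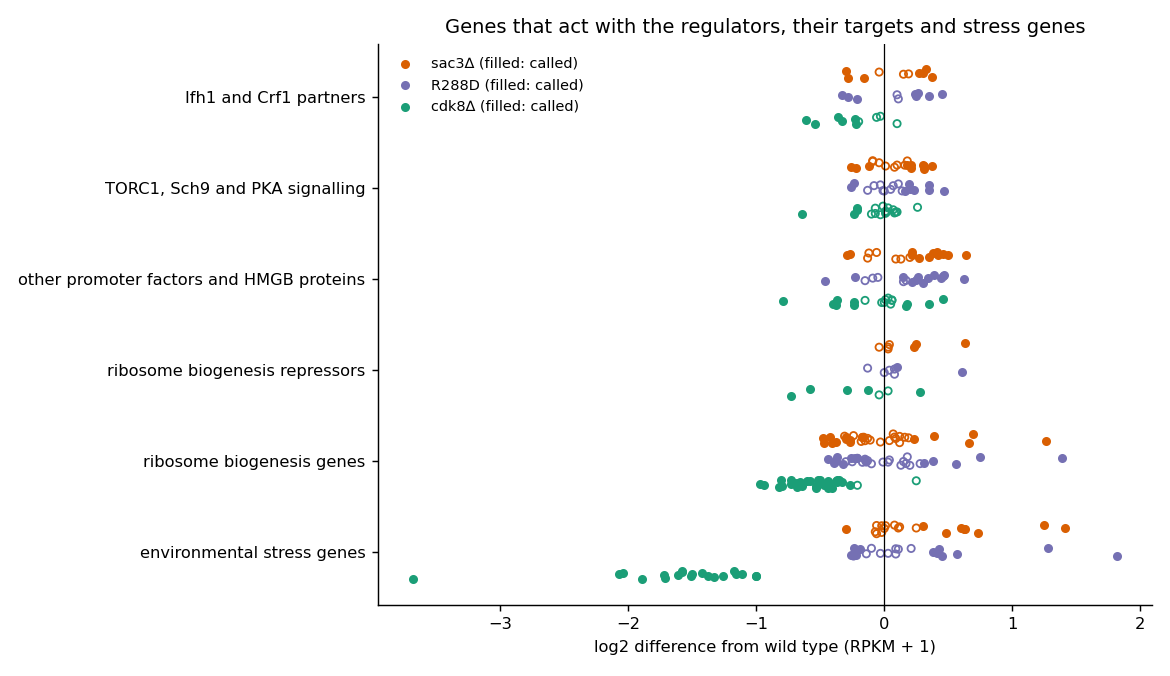
Log2 difference of RPKM plus 1 from wild type for each tested gene of 6 lists in sac3∆, R288D and cdk8∆; filled points passed an adjusted p of 0.05, and the 3 bands within a list are the mutants. In cdk8∆ 30 of 32 ribosome biogenesis genes and 20 of 20 stress genes lie filled below 0.

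Ribosome biogenesis genes, which Sfp1 also serves, were read as a second set of targets. Of 32, 5 rose and 10 fell in sac3∆ and 5 rose and 9 fell in R288D (medians of -0.14 in both), and 0 rose and 30 fell in cdk8∆ (median -0.53). The shares called, 46.9%, 43.8% and 93.8%, stood beside 51.5%, 50.8% and 62.1% of all features. Without the authors' factors the cdk8∆ count was 1 up and 12 down, and those of sac3∆ and R288D both turned to 10 up and 5 down (medians of 0.02 and 0.01). RRN3, the initiation factor of RNA polymerase I, rose by 1.26 ± 0.10 in sac3∆ and 1.39 ± 0.10 in R288D (by limma, adjusted p = 1.99e-06 and 1.08e-06). RRP9 rose by 0.66 ± 0.12 and 0.75 ± 0.12 (limma adjusted p = 5.61e-04 and 2.53e-04). MAK16 stood at 0.69 and 0.56 (limma adjusted p = 0.0111 and 0.0319), and both calls ended after quantile normalization (adjusted p = 0.0556 and 0.168). NSR1, BRX1 and SSF1 fell in cdk8∆, with differences of -0.97 ± 0.15, -0.94 ± 0.07 and -0.82 ± 0.10 (limma adjusted p at most 1.18e-04). Against cdk8∆, 26 of the 32 were higher in sac3∆ and 26 in R288D, with none lower. The share called was 81.2% in each, beside 64.1% and 63.7% of all features (32.9% and 32.3% up). Of the 138 ribosomal protein genes, 8 were higher and 40 lower in sac3∆ and 7 higher and 30 lower in R288D. Those shares called, 34.8% and 26.8%, were below the same background as deposited. The list was not counted against cdk8∆ under other scalings. Its medians against wild type in sac3∆, R288D and cdk8∆ were -0.73, -0.71 and -0.64 as deposited. They were -0.33, -0.32 and 0.02 after quantile normalization, and -0.57, -0.56 and -0.25 without the authors' factors. In both of those settings the SAC3 mutants lay further from cdk8∆ than as deposited.

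Environmental stress genes usually go against ribosomal protein genes when growth slows, so 20 of them were read beside the regulators. In sac3∆ 8 rose and 1 fell, in R288D 7 rose and 4 fell, and in cdk8∆ 0 rose and 20 fell, with medians of 0.12, 0.09 and -1.50. The shares called were 45%, 55% and 100%, beside 51.5%, 50.8% and 62.1% of all features. With both directions pooled, the SAC3 mutants were near the background as deposited. By direction, 27.4% of all features rose and 24.1% fell in sac3∆, and 26.3% and 24.4% in R288D. After quantile normalization 16 rose and 1 fell in sac3∆ (median 0.48), and 13 rose and 0 fell in R288D (median 0.37). In that setting 2849 and 2650 of all features were called, 48.6% and 48.9% of them up. Without the authors' factors 11 rose and 0 fell in sac3∆, and 10 rose and 0 fell in R288D. In cdk8∆ all 20 fell under every scaling tried. TKL2 and HSP26 rose by 1.41 ± 0.11 and 1.25 ± 0.15 in sac3∆ and by 1.28 ± 0.11 and 1.82 ± 0.15 in R288D (limma adjusted p at most 3.30e-05). DDR2 rose by 0.73 ± 0.12 and 0.43 ± 0.12 in the same mutants, and GAC1 by 0.63 ± 0.12 and 0.57 ± 0.12 (limma adjusted p at most 0.0115). In cdk8∆ HSP12, SPI1 and HSP26 fell, with differences of -3.68 ± 0.11, -2.04 ± 0.09 and -2.07 ± 0.15 (limma adjusted p at most 3.13e-07). In cdk8∆ low ribosomal protein transcripts, as deposited, stood beside low stress transcripts.

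The genes whose pattern over the 4 group means was nearest to that of IFH1 were found among 5141 named protein-coding genes, by the root mean square difference of centred log2 means. They were SPC110, a spindle pole body component (0.165), NCA3 (0.203), RRN11 of the RNA polymerase I core factor (0.257), HMS1 (0.275) and NDJ1, a meiotic telomere protein (0.306). SPC110 stood at 23.7 ± 2.89 RPKM in wild type, 72.3 ± 7.32 in sac3∆, 64.8 ± 4.81 in R288D and 17.9 ± 0.371 in cdk8∆ (SD, n = 3). The nearest to CRF1 were YSW1 (0.0699) and ALP1 (0.0710), both under 11 RPKM in every group on average. FHL1 was matched by WHI4 (0.00727) and RNT1 (0.0167), SFP1 by CMR2 (0.0180) and SET1 (0.0238), RAP1 by TMA16 (0.0106) and RSM27 (0.0123), and HMO1 by GUT2 (0.00901) and TSC13 (0.0164). All 5 distances listed for IFH1 exceeded those listed for the other regulators, for which fewer genes were listed. The distance was centred but not scaled by the size of the changes. IFH1, named for its rise in these samples, had a range of group means of 2.27 (log2), wider than 98.6% of features. The larger distances therefore cannot show whether the shape of its pattern was unusual.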

How the data were processed

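Per the submitters' processing notes, TopHat2 2.0.9, HTSeq 0.5.4p3, edgeR, limma, R 3.0.1 and the R64 build were used, with no role stated. RNA was extracted with hot phenol and depleted of ribosomal RNA, per the labels. The authors deposited RPKM values, with library sizes that appear scaled between samples, which was inferred from the values. RPKM times exon length gave whole reads within 0.1 for 99.34 to 99.67% of values under 300 reads, so reads could be counted. The library size implied by RPKM ran from 0.862 times the recovered reads (wild type replicate 1) to 1.174 times (cdk8∆ replicate 2). Strand handling is not given in the sources used here. Of 7126 features, 6160 matched RefSeq R64.

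After a filter at a mean of 1 RPKM over the 12 samples, 6124 features were fitted as log2(RPKM + 1) with limma 3.58.1 in R 4.3.3 (a mean per group, 12 samples, eBayes with a mean trend, two-sided, Benjamini-Hochberg over all features of a comparison, threshold 0.05). "Called", "rose" and "fell" mean past that threshold. The fit was tested on simulated data. Tables and plots were made with Python 3.11.15, pandas 2.3.3, numpy 2.4.6 and matplotlib 3.10.9. Lists, members and the naming rule were chosen with earlier results of these data known. The rule named, besides the 6 regulators, SAC3 and SSN3, up to 3 called genes of each list with the largest difference per comparison with wild type, the 2 lowest and 2 highest ribosomal protein genes, and the genes nearest in pattern (5 for IFH1, 2 for each other member). The 3 Rap1 examples and the neighbouring genes were added after values were seen. Groups of 3 were not tested for outliers.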

Additional observations from a re-analysis of the deposited data

How the results depend on the processing

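The alternatives were a pseudocount of 0.1 or 5, a filter at 10 RPKM or none, medians set equal, quantile normalization, no scaling factors, only the groups compared, no mean trend, a replicate block and leaving out each sample. IFH1 moved beyond 1 residual SD, with its sign kept, in sac3∆ to 1.61 (pseudocount 5), 1.66 (medians set equal), 1.65 (quantile) and 1.90 (no factors). In R288D it moved to 1.58 (pseudocount 5), 1.62 (quantile) and 1.85 (no factors), and in cdk8∆ to -0.70 (quantile) and -0.15 (no factors). In sac3∆ 3 of the 5 tested regulators were called after quantile normalization in place of 5: RAP1 was 0.12 (also 0.12 with medians set equal) and HMO1 0.03. HMO1 was -0.03 in sac3∆ without factors, -0.10 in R288D after quantile normalization, and in cdk8∆ 0.10 (quantile) and 0.15 (no factors). In cdk8∆ without factors RAP1 was 0.07, FHL1 0.29 and SFP1 0.35, and FHL1 was -0.30 after quantile normalization. Without factors 76.9%, 75.8% and 85.8% of called features were up in sac3∆, R288D and cdk8∆, against 53.3%, 51.8% and 50.7% as deposited, and with medians set equal 37.8%, 38.8% and 42.9%.

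Ribosomal protein medians in sac3∆, R288D and cdk8∆ were -0.33, -0.32 and 0.02 (quantile) and -0.57, -0.56 and -0.25 (no factors). Rises among them were 1, 1 and 11 (quantile), 1 in R288D and 1 in cdk8∆ (no factors), and falls in cdk8∆ were 16 (quantile). The cause of these changes was not tested.

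Leaving out samples gave SFP1 -0.05 to 0.01 in cdk8∆, 0 to 1 rising ribosomal protein genes in R288D and cdk8∆, and IFH1 1.69 to 1.79, 1.65 to 1.76 and -0.56 to -0.49 in sac3∆, R288D and cdk8∆. No call of the 5 tested regulators against wild type ended there. Between sac3∆ and R288D, where 84 features were called, 17 were with only those groups fitted, 53 without sac3∆ replicate 1 and 468 without R288D replicate 2, in a range of 53 to 468. Differences near 0 changed sign there: FHL1 (-0.08 to 0.02) without R288D replicate 1, IFH1 (-0.02 to 0.10) to -0.02 and -0.01 without sac3∆ replicate 1 and R288D replicate 2, and SFP1 (-0.03 to 0.07) to -0.03 and -0.01 without replicate 3 of either. For HMO1, sac3∆ minus cdk8∆ turned to -0.07 (quantile), -0.18 (no factors) and 0.00 without sac3∆ replicate 2 (0.00 to 0.10 over samples left out).

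Replicate numbers are shared between groups, and no label says that they pair the samples. Deviations of same-numbered samples correlated at -0.291 to 0.156, and those of other-numbered samples at -0.168 to 0.293. No shared deviation by number was seen, which cannot show whether samples were handled in pairs. With the replicate block 3085, 3009 and 3725 features were called in sac3∆, R288D and cdk8∆, and 5, 5 and 3 of the 5 tested regulators, so no call of theirs changed. CRF1 in wild type rests on the fewest reads of the 6 regulators.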
